A study of Mus musculus with 8 samples.

Results

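The bone morphogenetic protein (BMP) pathway was described here through 10 genes chosen by symbol: the receptors Bmpr1a, Bmpr1b and Bmpr2, the secreted antagonist Grem1, the inhibitory Smads Smad6 and Smad7, and the target genes Id1, Id2, Id3 and Id4. All 10 had a probe on the array, with 11 probes in all, and all 10 were among the 25056 gene names kept by the filter on dim probes. RNA came from white adipose tissue of 4 Ad/NICD mice, in which the intracellular domain of Notch1 was overexpressed, and of 4 wild-type (WT) mice. Both genotypes were 5 weeks old, of the 129 × C57BL/6 strain and on regular chow. Per the labels each of the 8 samples is a biological replicate. No source used here states the promoter behind the transgene, the fat depot or the sex of the mice. The question was whether BMP receptors, feedback inhibitors and response genes differ in fat with the Notch1 intracellular domain.

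BMP ligands bind a complex of type I and type II receptor kinases on the cell surface. The type I receptor then phosphorylates Smad1, Smad5 and Smad9, which enter the nucleus with Smad4 and switch on target genes. The Id genes are among the best known of these targets, and Smad6 and Smad7 are induced as feedback inhibitors. Id proteins are helix-loop-helix factors without a DNA-binding region, and they hold E proteins away from DNA. In adipose tissue the pathway is known for its part in the commitment of progenitors to the fat lineage, with Bmp4 as a well-studied ligand.

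Each of the 4 arrays carried 1 Ad/NICD sample in the red channel (Cy5) and 1 WT sample in the green channel (Cy3), the likely direction. The authors' value table has it so, since its Ad/NICD columns hold the red signal and its WT columns the green signal. The labelling protocol gives Cy5 to test samples and Cy3 to controls. The dye tag of each sample says the opposite, which would turn every sign below and swap the genotype named for each level. No array had its dyes swapped, so dye and genotype cannot be told apart. Between 57.4% and 68.6% of spots in a red channel and 58.1% to 63.3% in a green channel were well above background. Precision is limited by the number of arrays. The replicate 4 pair stood apart: Eif2s3y, a Y-linked gene, had log2 levels of 10.8 and 10.9 there, against 5.81 to 6.06 in the other 6 samples, and Xist, expressed from the inactive X chromosome, had 5.87 and 6.12 against 10.1 to 10.5. Values without that pair are given beside several of the ratios below. Notch1 itself had a mean log2 ratio of 0.36 ± 0.24 (SE, n = 4 arrays), higher on 2 of 4 arrays, and no source used here tells whether its probe lies in the overexpressed part. Heyl, a known Notch target, had levels of 11.04, 11.99, 11.38 and 11.83 in Ad/NICD samples, against 8.74, 8.78, 8.62 and 8.61 in WT samples.

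Start-site sequences are shown for the Id genes because these are the direct transcriptional readout of the pathway. The RefSeq table of the GRCm38.p6 assembly held windows for 8 of the 10 genes; Id1 and Smad7 were not among them. Each window runs 5′ to 3′ on the strand of the gene, from 250 bases before the annotated start to 50 bases after it. The Id2 window lies at chr12:25096043-25096342 on the minus strand, the Id3 window at chr4:136143572-136143871 on the plus strand and the Id4 window at chr13:48260866-48261165 on the plus strand. Capitals mark matches, on either strand, to GGCGCC (a GC-rich Smad element), CAGAC (a Smad element) or TGGGAA (the core bound by RBPJ, the DNA-binding partner of the Notch intracellular domain), and no marked match overlaps another.
Id2: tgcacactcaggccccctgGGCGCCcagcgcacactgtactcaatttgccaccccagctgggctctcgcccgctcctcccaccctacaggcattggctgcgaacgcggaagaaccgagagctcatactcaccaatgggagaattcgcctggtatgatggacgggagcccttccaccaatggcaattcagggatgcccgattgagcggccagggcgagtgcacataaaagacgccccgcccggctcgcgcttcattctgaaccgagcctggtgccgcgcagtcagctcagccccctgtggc
Id3: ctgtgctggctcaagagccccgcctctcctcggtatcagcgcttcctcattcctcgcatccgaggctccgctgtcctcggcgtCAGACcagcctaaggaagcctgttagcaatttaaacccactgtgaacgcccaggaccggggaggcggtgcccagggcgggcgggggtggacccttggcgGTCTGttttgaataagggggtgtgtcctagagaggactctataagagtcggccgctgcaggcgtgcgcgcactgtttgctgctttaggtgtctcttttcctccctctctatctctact
Id4: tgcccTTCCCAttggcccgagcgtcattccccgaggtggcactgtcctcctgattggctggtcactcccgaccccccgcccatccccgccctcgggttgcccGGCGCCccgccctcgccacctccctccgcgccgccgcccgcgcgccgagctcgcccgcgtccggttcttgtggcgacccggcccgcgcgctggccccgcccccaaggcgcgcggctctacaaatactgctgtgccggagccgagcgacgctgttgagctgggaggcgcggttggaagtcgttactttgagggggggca
In the Id2 window GGCGCC began at -231 relative to the start, where 1 is the first transcribed base and -1 the base before it. The Id3 window held CAGAC at -167 and, on the other strand, at -68. The Id4 window held GGCGCC at -148 and TGGGAA, on the other strand, at -245. The background differed between the motifs: over 32851 windows of 300 bases, 11.9% held GGCGCC, 49.6% held CAGAC and 25.6% held TGGGAA. Among the other members, GGCGCC was found at -198 in Bmpr1a, at -105 in Bmpr2 and at -78 in Grem1. The member windows with GGCGCC were 59.3% to 79.3% G or C, and they were not compared with windows of like composition. CAGAC was found at -219 and 18 in Grem1, and at -128 and -245 in separate windows among the 3 of Bmpr1b. TGGGAA was found in the windows of Bmpr1a and Bmpr2, at -217 and -214. None of these 3 motifs was found in the Smad6 window. A match is a description of letters only.

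Of the 10 genes, 0 passed an adjusted p of 0.05 in limma, where 0.0479% of all gene names did (12 of 25056). Id1 alone had an unadjusted p under 0.05, which 15.2% of all gene names had. The median of the 10 mean log2 ratios was 0.058, against -0.0061 over all gene names, and 6 of the 10 lay above 0. The median size of the ratio, leaving out its sign, was 0.086 for the 10 genes and 0.10 for all gene names. Id1 was the member with the lowest p, and Id4 the one with the widest spread between arrays. In bulk tissue, fewer cells of a type and less RNA per cell cannot be told apart. Levels are log2 signals of 1 channel after normalisation, and ratios are log2 of Ad/NICD over WT within an array. Levels of different probes are not on a common scale.

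**Figure D1:**
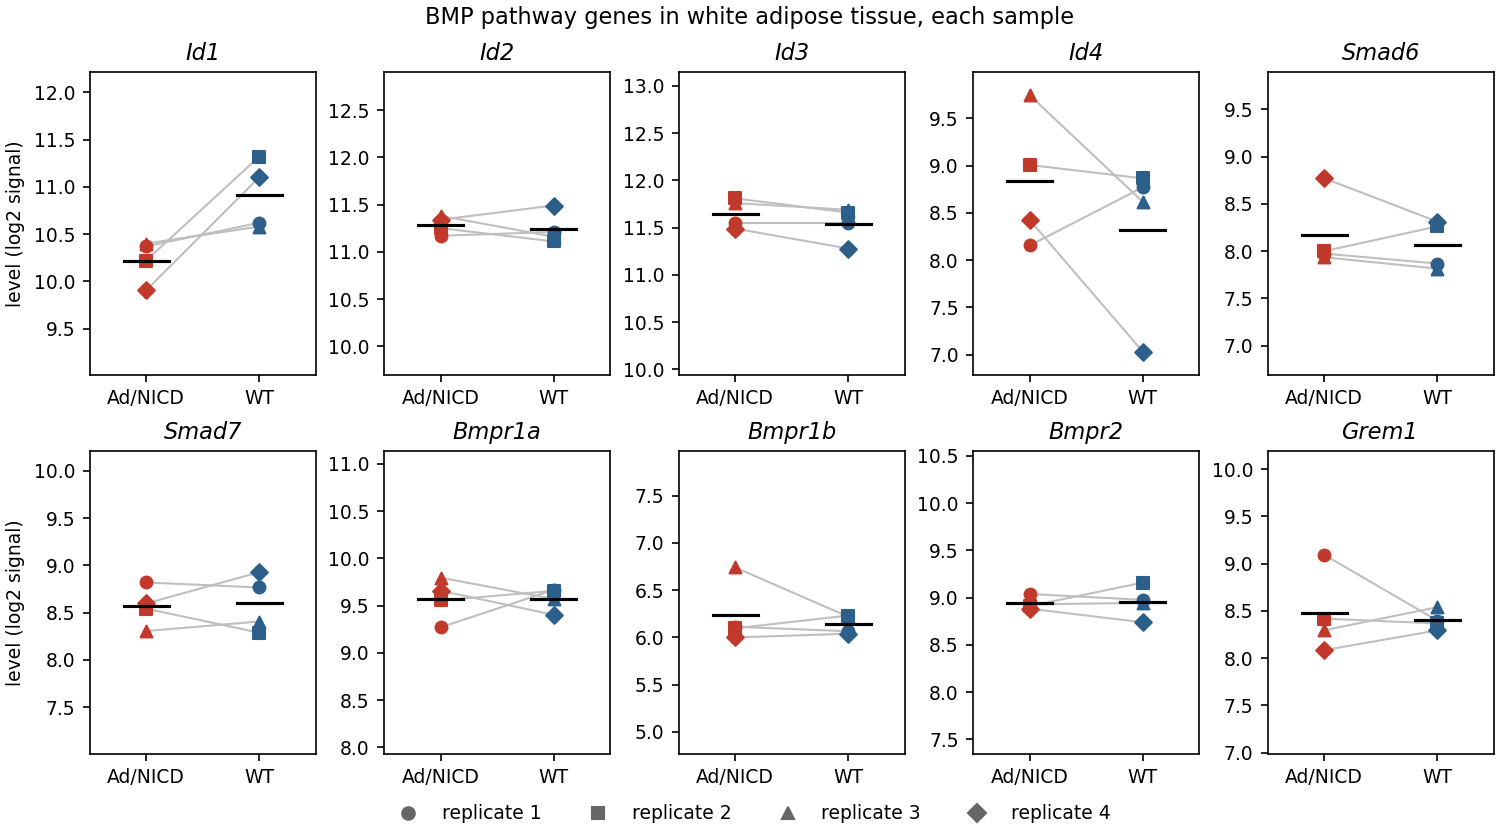
Log2 level (vertical axis) of each of the 10 genes in Ad/NICD samples (left, red) and WT samples (right, blue); marker shapes give the replicate, grey lines join the samples of 1 array and black bars are means of 4 samples. Each panel spans the same height on its own range of levels, and Id1 is the 1 gene whose groups do not overlap.

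The mean levels of Bmpr1a and Bmpr2 were close to equal in the genotypes. Bmpr1a, a type I receptor widely expressed in mesenchymal cells, had levels of 9.27, 9.56, 9.80 and 9.66 in Ad/NICD samples, against 9.67, 9.66, 9.57 and 9.40 in WT samples. The groups overlapped, with Ad/NICD lower on the arrays of replicates 1 and 2 and higher on those of replicates 3 and 4. The mean ratio of Bmpr1a was -0.0040 ± 0.13 (SE, n = 4 arrays), with a 95% interval of -0.33 to 0.32 and a limma adjusted p of 0.991. In linear terms that interval runs from 0.796 to 1.25-fold. Bmpr2, a type II receptor that binds BMPs, had 9.04, 8.91, 8.93 and 8.88 in Ad/NICD samples, against 8.98, 9.16, 8.94 and 8.74 in WT samples. Its Ad/NICD samples all lay within the range of the WT samples. The mean ratio was -0.015 ± 0.084 (interval -0.23 to 0.20, adjusted p 0.955), or 0.854 to 1.15-fold.

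Bmpr1b, another type I BMP receptor, was close to the detection limit. Its brighter probe read 6.11, 6.10, 6.74 and 6.00 in Ad/NICD samples, against 6.07, 6.23, 6.22 and 6.04 in WT samples. It was well above background on 1 Ad/NICD array and 3 WT arrays, and the lowest levels so rated were 5.77 to 5.89 in Ad/NICD channels and 5.59 to 5.86 in WT channels. The Ad/NICD sample of replicate 3 was the high one, and the other 7 samples lay between 6.00 and 6.23. The mean ratio was 0.098 ± 0.12 (interval -0.21 to 0.41, adjusted p 0.752), and it was -0.043 without replicate 3. The second Bmpr1b probe was dimmer and did not pass the filter, with a mean ratio of 0.039 and its highest ratio, 0.25, on the same array of replicate 3.

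Grem1, a secreted protein that binds BMP ligands and keeps them from their receptors, had levels of 9.09, 8.42, 8.30 and 8.09 in Ad/NICD samples, against 8.40, 8.37, 8.54 and 8.29 in WT samples. The Ad/NICD sample of replicate 1 was the highest of the 8, and the Ad/NICD sample of replicate 4 the lowest. The ratio was 0.70 on the array of replicate 1, and 0.050, -0.24 and -0.21 on those of replicates 2 to 4. Its mean was 0.074 ± 0.17 (interval -0.36 to 0.51, adjusted p 0.875), and leaving out replicate 1 turned it to -0.13. Grem1 levels spread more among Ad/NICD samples, with an SD of 0.44, than among WT samples, with an SD of 0.10 (n = 4 each), a difference in spread that was not tested.

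The inhibitory Smads did not pass the test in either direction. Smad6, which preferentially blocks BMP receptors, read 7.97, 7.999, 7.93 and 8.77 in Ad/NICD samples, against 7.87, 8.26, 7.81 and 8.31 in WT samples. The replicate 4 sample was the highest within each genotype. The mean ratio of Smad6 was 0.11 ± 0.12 (interval -0.21 to 0.42, adjusted p 0.734), and it was -0.012 without replicate 4. Smad7, which blocks both BMP and TGF-beta receptors, read 8.82, 8.54, 8.30 and 8.60 in Ad/NICD samples, against 8.77, 8.29, 8.41 and 8.93 in WT samples. Its groups overlapped throughout, and the mean ratio was -0.031 ± 0.11 (interval -0.31 to 0.24, adjusted p 0.921). Without replicate 4 the Smad7 ratio was 0.069.

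None of the 4 Id genes passed the test, and differences between them were not tested. Id1, an Id protein strongly induced by BMPs in many cell types, had levels of 10.37, 10.22, 10.40 and 9.91 in Ad/NICD samples, against 10.62, 11.32, 10.58 and 11.10 in WT samples. All 4 Ad/NICD samples lay below all 4 WT samples, with means of 10.22 ± 0.23 in Ad/NICD and 10.91 ± 0.36 in WT (SD, n = 4 each). Such a gap with Ad/NICD below WT was found for 5.58% of all gene names. The array ratios of Id1 were -0.26, -1.10, -0.18 and -1.20, negative on 4 of 4 arrays, as for 13.4% of all gene names. The arrays of replicates 2 and 4 thus had the large differences and those of replicates 1 and 3 the small ones. The mean ratio was -0.68 ± 0.21 (SE, n = 4 arrays), with an interval of -1.22 to -0.15, or 0.429 to 0.901-fold. The unadjusted limma p was 0.0212 and the adjusted p 0.243, so Id1 did not pass. An exact two-sided sign-flip permutation test over the 4 arrays gave 0.125, the smallest p that 4 arrays allow. The adjusted p was 0.102 when the channels were fitted separately with a random array term, and 0.14 without that term. Those fits called 1.98% and 1.02% of all gene names. Without replicate 4 the Id1 ratio was -0.51 ± 0.21, with an adjusted p of 0.306.

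Id2, which also has roles in lymphoid cells and in fat cell formation in mice, read 11.17, 11.25, 11.38 and 11.34 in Ad/NICD samples, against 11.21, 11.11, 11.16 and 11.49 in WT samples. The sign differed between arrays, and the mean ratio was 0.041 ± 0.084 (interval -0.17 to 0.25, adjusted p 0.852). Id3, which is often induced together with Id1, read 11.55, 11.81, 11.76 and 11.49 in Ad/NICD samples, against 11.55, 11.66, 11.69 and 11.28 in WT samples. The Id3 ratio was above 0 on 4 of 4 arrays, as for 11.1% of all gene names, but by as little as 0.0037 on the array of replicate 1. Its mean was 0.11 ± 0.065 (interval -0.056 to 0.27, adjusted p 0.493), or 0.962 to 1.21-fold. The intervals of Id2 and Id3 end above -0.68, the mean ratio of Id1, and that of Id2 overlaps the interval of Id1.

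Id4, a family member linked to fat cell and bone cell formation in mice, read 8.16, 9.01, 9.74 and 8.42 in Ad/NICD samples, against 8.77, 8.87, 8.62 and 7.03 in WT samples. The WT sample of replicate 4 was the lowest of the 8, and the Ad/NICD sample of replicate 3 the highest. The ratios were -0.62, 0.14, 1.13 and 1.39 on the 4 arrays. The SD of these ratios was 0.92, larger than for 98.5% of all gene names. The mean ratio of Id4 was 0.51 ± 0.35 (interval -0.38 to 1.40, adjusted p 0.551), which spans 0.768 to 2.65-fold. It was 0.89 ± 0.27 without replicate 1 (adjusted p 0.290), 0.31 ± 0.41 without replicate 3 and 0.22 ± 0.35 without replicate 4, and in each case it did not pass.

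**Figure D2:**
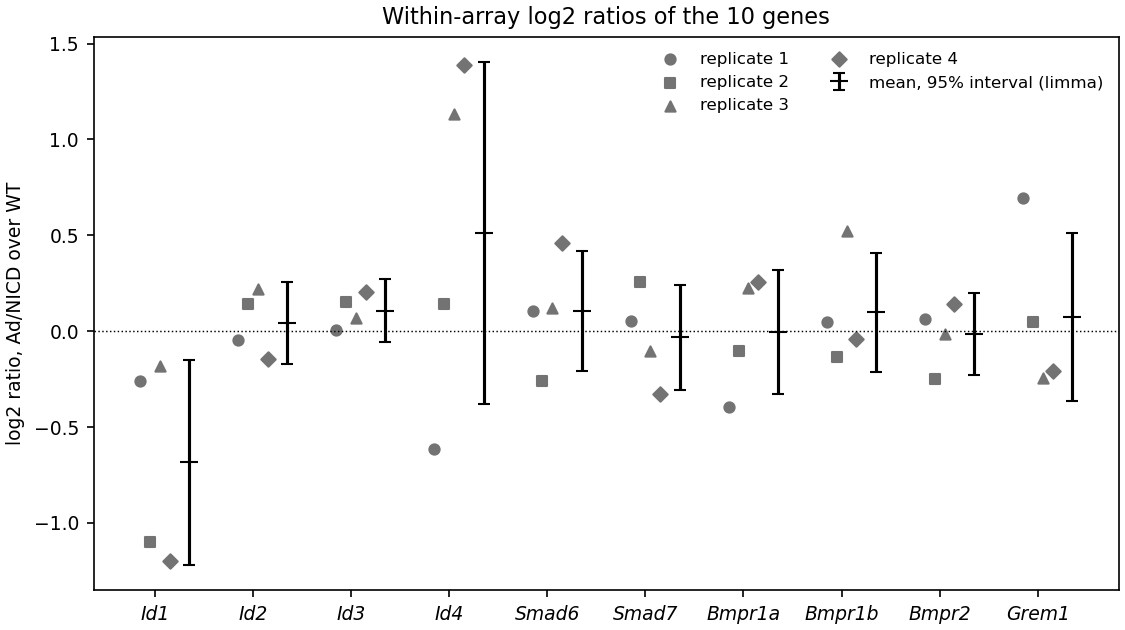
Log2 ratio of Ad/NICD over WT (vertical axis) for each gene on each of the 4 arrays (grey markers, 1 shape a replicate) with the mean and its 95% limma interval (black). The interval of Id1, -1.22 to -0.15, is the 1 that does not cross 0, and the ratios of Id4 run from -0.62 to 1.39.

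Markers of the cell types in the tissue were set beside the Id1 ratios, and not every list followed them over the arrays. Id1 is known to be high in endothelial cells, and 15 of 16 endothelial markers had a mean ratio below 0. The summed linear signal of the endothelial list was 36700, 38700, 38000 and 44500 in Ad/NICD samples, against 49100, 47900, 51800 and 47000 in WT samples. All Ad/NICD sums were below all WT sums, and the array medians of the list were -0.34, -0.28, -0.35 and -0.11. These medians were thus nearest 0 on the array of replicate 4, where the Id1 ratio was -1.20. In the skeletal muscle list 12 of 12 members were below 0, with array medians of -0.51, -1.91, -0.47 and -3.73. Its summed signal was 4280, 4800, 3440 and 15100 in Ad/NICD samples, against 5470, 19300, 5420 and 201000 in WT samples. Among WT samples, those of replicates 2 and 4 were the highest for muscle markers and for Id1. Among Ad/NICD samples the order was the reverse: that of replicate 4, the highest for muscle markers, was the lowest for Id1, and that of replicate 3, the lowest for muscle markers, was the highest for Id1. Adipocyte markers were below 0 in 12 of 15 cases, with array medians of -0.34, -1.23, -1.20 and -0.15 and sums of 167000 to 309000 in Ad/NICD samples, against 339000 to 462000 in WT samples. The part of any of these cell types in the Id1 ratio was not tested.

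The Id4 ratios stood beside other lists. Progenitor and fibroblast markers had array medians of -0.37, 0.57, 0.21 and 1.19, with 13 of 14 members above 0 in the mean. Like Id4, the list was lowest on the array of replicate 1 and highest on that of replicate 4. Other lists had their lowest and highest medians on the same arrays, among them macrophage markers, at -0.55, 0.43, -0.075 and 0.72, and the extracellular BMP antagonists, at -0.27, -0.016, -0.050 and 0.51. The summed signal of the progenitor and fibroblast list was 136000, 197000, 197000 and 200000 in Ad/NICD samples, against 190000, 132000, 169000 and 80500 in WT samples, with the WT sample of replicate 4 again the lowest. Of the sources of RNA other than fat, markers of mammary epithelium summed to 698 in the Ad/NICD sample and 676 in the WT sample of replicate 4, and to 10800 to 28300 in the other samples. The part of these cell types in the Id4 ratio was not tested.

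**Figure D3:**
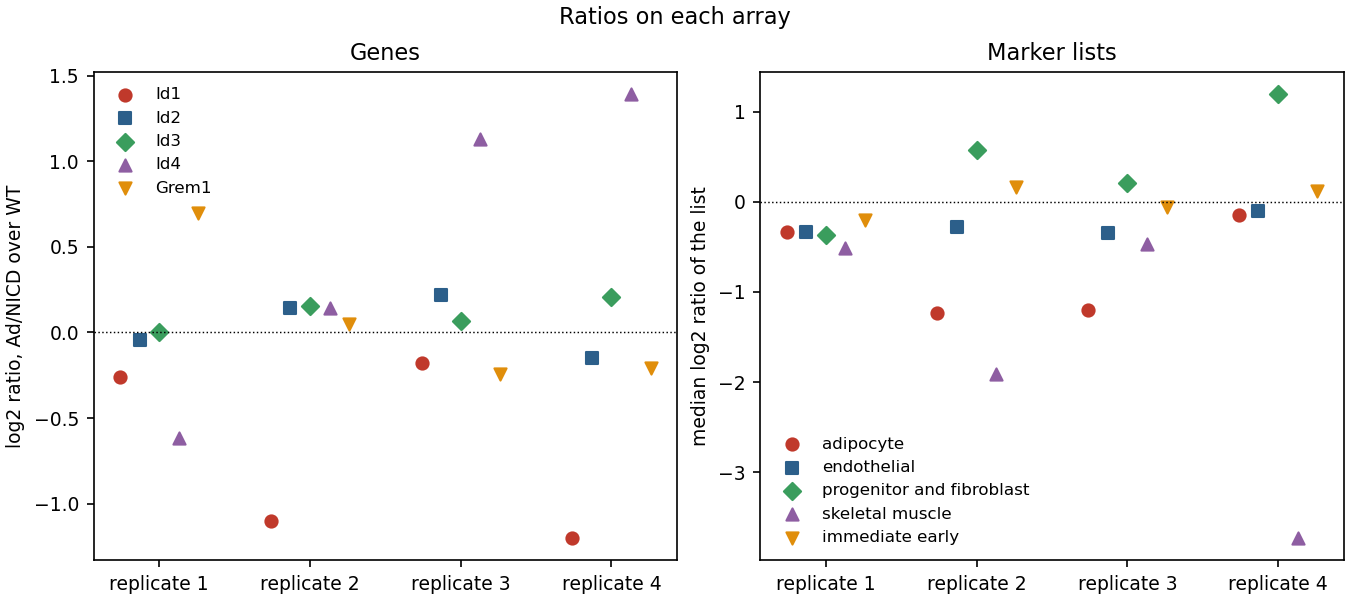
Left, log2 ratio of Ad/NICD over WT for the 4 Id genes and Grem1 on each array; right, median log2 ratio of 5 marker lists on the same arrays (horizontal axis, replicates 1 to 4). Id1 is at -1.10 and -1.20 on the arrays of replicates 2 and 4, where the skeletal muscle list is at -1.91 and -3.73. The adipocyte and endothelial lists are nearest 0 on the array of replicate 4, at -0.15 and -0.11.

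The genes whose 4 array ratios were most like those of Id1 were taken by the smallest root mean square difference over the 4 arrays. They were Serpina3k, at a difference of 0.11, Slc5a6 at 0.12, Ldb3 at 0.16, Myh1 at 0.19 and Rprml at 0.23, against a median of 0.85 over all gene names. Myh1, a fast myosin heavy chain, is one of the skeletal muscle markers. Its ratios were -0.11, -0.82, -0.033 and -1.06 on the arrays, where Id1 had -0.26, -1.10, -0.18 and -1.20. The genes were picked for this likeness, over 4 arrays only, and it is a description.

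Around the 10 genes, 9 lists of BMP, TGF-beta and Notch genes held 99 genes, of which 87 were measured. In limma 3 of these passed as higher and 1 as lower, 4.6% of those measured, against 0.0479% of all gene names. The lists were chosen with earlier results of these data known, so that share is a description only. The median of the 87 was -0.020. Those called were 3 ligands and a Notch target, while receptors, signal Smads, antagonists, modulators, BMP targets, E proteins and TGF-beta genes gave 0 calls. The 4 calls do not hold in every setting: 0 gene names passed without replicate 1, 2 or 3.

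Among 10 measured BMP and GDF ligands, Gdf5, a growth factor known for joint formation, rose, with levels of 10.36, 10.62, 10.63 and 10.55 in Ad/NICD samples, against 7.69, 8.29, 7.96 and 8.31 in WT samples. The Gdf5 ratio was 2.48 ± 0.10 (SE, n = 4 arrays, adjusted p 0.0312), and the dim second probe had 0.67. Gdf7, a close relative, rose by 1.02 ± 0.060 (adjusted p 0.0400), with 0.030 on a second probe that did not pass the filter. Bmp3, a family member known to oppose other BMPs, fell, with 6.98, 7.15, 7.23 and 7.01 in Ad/NICD samples, against 8.22, 8.43, 8.29 and 7.98 in WT samples. The Bmp3 ratio was -1.14 ± 0.078 (adjusted p 0.0433). Bmp4, the ligand of fat commitment, had 0.25 ± 0.12 (adjusted p 0.421) and 0.10 without replicate 4, Bmp8a had 0.48 ± 0.18 (adjusted p 0.306) and Bmp2 had -0.20 ± 0.10 (adjusted p 0.417). Among the Notch targets Heyl passed, at 2.87 ± 0.17 (adjusted p 0.0400). Hey1, a target of both Notch and BMP signals, had -0.20 ± 0.18 (adjusted p 0.658), with -0.037 without replicate 2 and -0.41 without replicate 4.

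Of 8 other receptors and co-receptors measured, 5 lay below 0. Eng, the endothelial co-receptor endoglin, had levels of 9.66, 9.95, 9.67 and 9.89 in Ad/NICD samples, against 10.10, 10.28, 10.20 and 10.06 in WT samples. Its groups did not overlap, with Ad/NICD below WT as for 5.58% of all gene names, and its ratio was -0.36 ± 0.080 (adjusted p 0.160). The type I receptor gene Acvr1 had -0.16 ± 0.13 and Acvrl1, the endothelial type I receptor, 0.094 ± 0.080. Of the signal Smads, Smad1 had -0.036 ± 0.11, Smad5 had -0.012 ± 0.095 and Smad4 had 0.20 ± 0.082. A second Smad4 probe pointed the other way, at -0.30. Smad9 did not pass the filter.

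Of 14 other extracellular antagonists measured, 6 lay above 0 and 8 below. Bmper, a secreted BMP-binding protein, was higher on 4 of 4 arrays, as for 11.1% of all gene names, at 0.29 ± 0.068 (adjusted p 0.173). Fstl1, a secreted follistatin-like protein, had 0.50 ± 0.33 (adjusted p 0.528), and 0.17 without replicate 4.

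The 12 intracellular modulators of BMP signals had 10 members below 0 and a median of -0.15, against -0.0061 over all gene names. Hipk2, a nuclear kinase, had -0.68 ± 0.11 (adjusted p 0.129), and it passed when channels were fitted separately with a random array term (adjusted p 0.0261). Its other probe had -0.18. Xiap, an apoptosis inhibitor that also links BMP receptors to a kinase cascade, had -0.35 ± 0.075 (adjusted p 0.158), and the ubiquitin ligase gene Smurf1 had -0.16 ± 0.077.

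Of 12 other BMP target genes measured, 7 lay above 0 and 5 below, with a median of 0.023. Atoh8 had -0.18 ± 0.075, Tmem100 had 0.43 ± 0.32, Gata3 had -0.34 ± 0.27 and Msx1, a classical BMP target in mesenchyme, had 0.15 ± 0.13, and none of these passed. Without replicate 4, Tmem100 had 0.058, Msx1 had 0.043 and Gata3 had -0.34. Gata3 levels were 8.85 and 9.19 in the replicate 4 pair, against 9.84 to 11.78 in the other samples. Markers of mammary epithelium were also lowest in that pair, and their part in the Gata3 ratio was not tested. The partners of Id proteins gave 4 of 6 above 0 with a median of 0.058. Elk1, an ETS factor that Id proteins can bind, had 0.56 ± 0.094 (adjusted p 0.130) and passed in the same random-term fit (adjusted p 0.0208), while its other probe had 0.018. The E protein genes Tcf3, Tcf4 and Tcf12 had 0.041, -0.041 and 0.075.

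**Figure D4:**
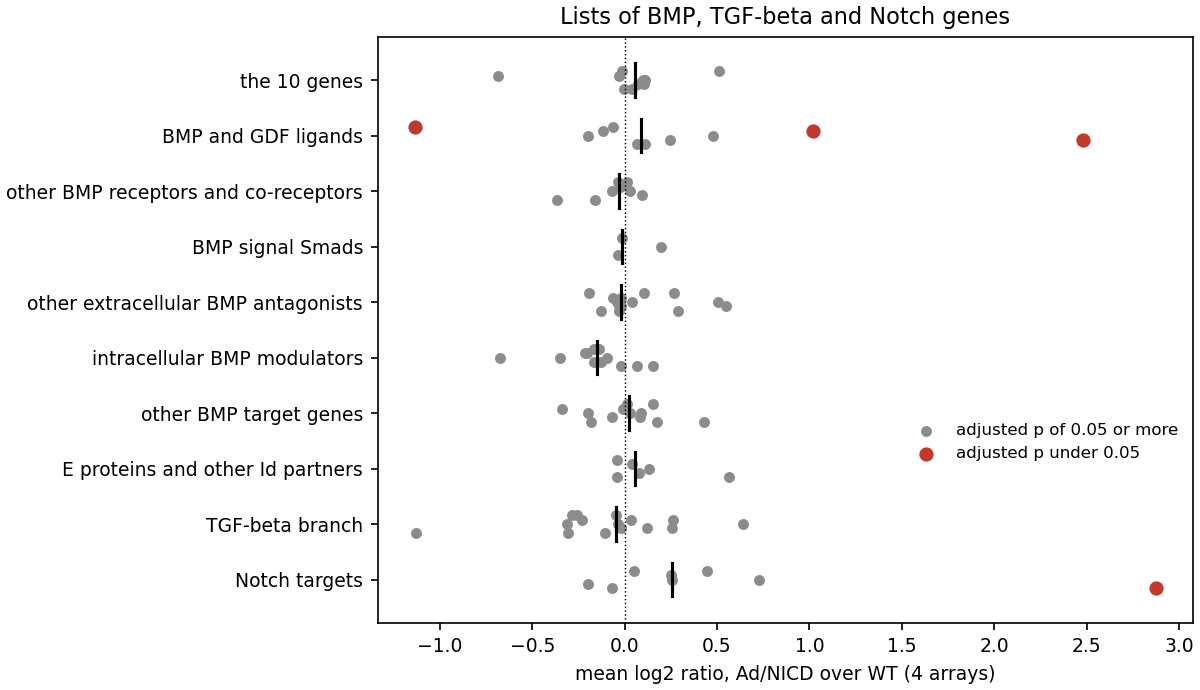
Mean log2 ratio of Ad/NICD over WT (horizontal axis) for each measured gene of the 10 genes and of 9 related lists; red points have a limma adjusted p under 0.05 and black bars are list medians. The called genes are Gdf5, Gdf7 and Bmp3 among the ligands and Heyl among the Notch targets, and the 10 genes hold none.

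The 10 genes were computed again under 15 other settings of processing and of the samples included. None passed in any of them. The settings of filter, probe averaging, channel fit and moderation returned the ratios as reported, so no sign could turn in them. Id1 stayed below 0 in 15 of 15, with ratios of -1.20 to -0.51 and adjusted p-values of 0.0776 to 0.584. Id4 stayed above 0 in 15 of 15, at 0.054 to 0.89. The other 8 genes had both signs among the settings. Median centring of the arrays in place of loess moved the median of all gene names to -0.32. Relative to that shift the ratios were -0.88 for Id1, -0.13 for Id2, -0.042 for Id3 and 0.38 for Id4. The receptor genes Bmpr1a, Bmpr1b and Bmpr2 had -0.19, 0.49 and -0.18 on that scale, where the dim Bmpr1b was the highest of the 10. That scale takes the same shift off every gene and, unlike loess, does not adjust for brightness. Genes of unlike brightness are therefore not comparable on it. Smad6 had 0.030, Smad7 -0.17 and Grem1 -0.063.

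**Figure D5:**
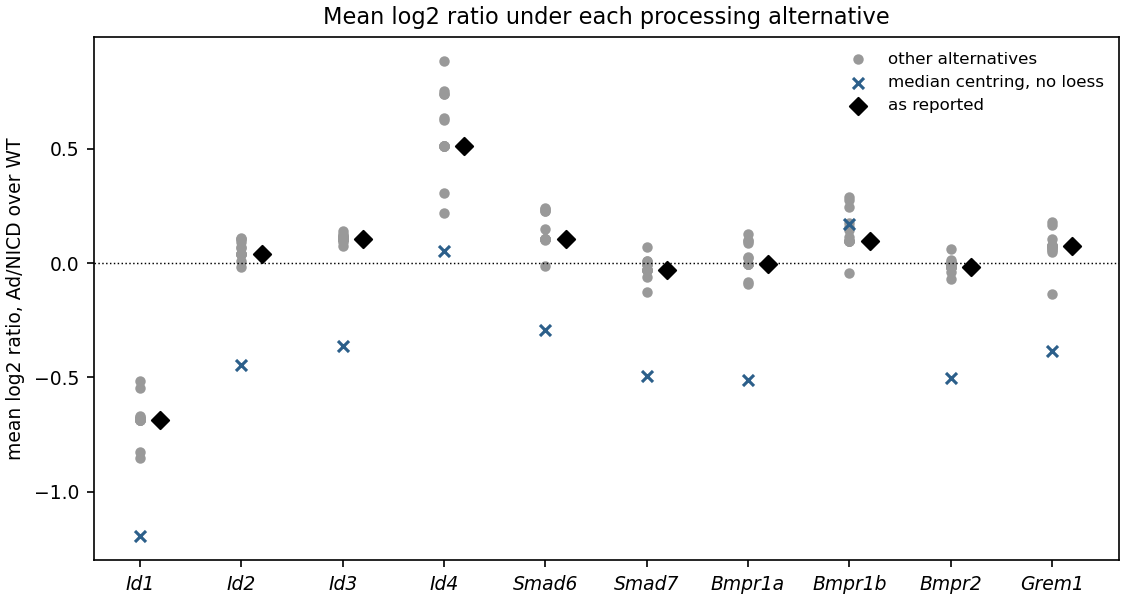
Mean log2 ratio of Ad/NICD over WT (vertical axis) of each gene as reported (black diamonds), under median centring without loess (blue crosses) and under the other alternatives (grey points). Id1 lies below 0 and Id4 above 0 throughout, and the crosses lie below the diamonds for every gene but Bmpr1b, whose ratio was 0.17 under median centring against 0.098 as reported.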

How the data were processed

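RNA of 4 Ad/NICD and 4 WT samples was compared on 4 arrays with 2 colours, each array carrying the samples of 1 replicate number, since the deposited scanner tables of same-numbered samples were identical. Scans were read with Agilent Feature Extraction 11.5, per the submitters' processing notes. The deposited scanner tables hold spot intensity (foreground, background and processed signal) and a log10 ratio of red over green, per the file headers. The authors' deposited value table is on a log2 scale, with column medians of -3.84 to -3.52. Each column tracked the log2 processed signal of 1 channel, centred by an offset. The WT columns of that table differed from green by an SD of 0.0058 to 0.0117, and from red by 0.609 to 0.688.

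Here, median foreground and background were corrected with normexp (offset 50, which pulls ratios of dim probes toward 0) and normalised by loess within arrays, with control spots at weight 0 (limma 3.58.1, R 4.3.3). Median foreground was 31 to 40 in red over a background of 19 to 20, and 67 to 79 in green over 45 to 46. Of 55681 probes, 28026 were named through their accession in a RefSeq table of GRCm38.p6, whose coordinates were not used, and 27655 kept the file's name. A probe was kept if 1 channel or both exceeded background clearly on 3 or more arrays. These flags are missing on the replicate 1 array and were rebuilt from negative controls; elsewhere the rebuilt flags matched the scanner's for 98.5% to 100% of spots per channel. Of several kept probes for 1 of the 25056 gene names, the brightest was used. The 4 ratios were tested against 0 with lmFit and eBayes, Benjamini-Hochberg adjusted over all names, at 0.05. The script was tested on simulated data. Levels are channel signals after loess and Aquantile.

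Samples of a pair share an array. Their deviations from the group means correlated at 0.175, 0.166, 0.564 and 0.528 for replicates 1 to 4. Nothing in the labels says what else a pair shares. All 4 arrays lie on 1 slide.

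The 10 genes and the lists were chosen with earlier results of these data known. Named are the 10 genes, list genes past the threshold in the ratio fit or with the array as a random term, up to 4 genes of each pathway list with the lowest p, and the 5 genes most like the member of lowest p; 1 gene that this rule names is not reported here. Bmp2, Bmp4, Hey1, Tcf4, Notch1 and the sex-linked genes were named beyond that, chosen after their values were seen. Of the alternatives, 15 were run: background correction, normalisation, deposited values, filters, probe averaging, the array block, moderation and leaving out each replicate. Start-site windows come from a RefSeq table of GRCm38.p6.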

Additional observations from a re-analysis of the deposited data

Results flagged for a closer look

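In 30 groups of 4 values checked for the 10 genes (levels of each genotype, and ratios), 3 had 1 sample far from the rest; chance gives about 1 in 20 groups. The WT sample of replicate 4 had an Id4 level of 7.03, with the other WT samples at 8.62 to 8.87. The Ad/NICD sample of replicate 4 had a Smad6 level of 8.77, with the other Ad/NICD samples at 7.934 to 7.999. The Ad/NICD sample of replicate 3 had a Bmpr1b level of 6.74, with the other Ad/NICD samples at 6.00 to 6.11, near the detection limit. The first and second of these values come from the replicate 4 pair, which had high Y-linked and low Xist signal.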

How the results depend on the processing

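None of the 10 genes passed under any of 15 alternatives, and 129 of 149 alternative ratios of single genes kept their sign. Many of the 149 could not turn, since the filters, probe averaging, separate-channel fits and moderation returned the reported ratios. Bmpr1b gave no value when probes had to be above background in both channels. The signs that turned were Bmpr1a (0.021) and Bmpr2 (0.014) with an offset of 10, Smad7 (0.0074) and Bmpr1a (0.096) with processed signals, Smad7 (0.011), Bmpr1a (0.10) and Bmpr2 (0.0038) with the deposited log ratio, and Bmpr1a (0.087) with the authors' deposited table. With median centring Id2 had -0.45, Id3 -0.36, Smad6 -0.29 and Grem1 -0.38, with the median of the 10 genes at -0.41 and that of all gene names at -0.32. Leaving out each replicate in turn gave -0.85 to -0.51 for Id1, -0.018 to 0.10 for Id2, 0.075 to 0.14 for Id3, 0.22 to 0.89 for Id4, -0.012 to 0.23 for Smad6, -0.13 to 0.069 for Smad7, -0.090 to 0.13 for Bmpr1a, -0.043 to 0.18 for Bmpr1b, -0.068 to 0.063 for Bmpr2, -0.13 to 0.18 for Grem1 and -0.011 to 0.088 for the median of the 10 genes.

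The count of gene names past the threshold, 12 as reported, was 3 with processed signals, 4 with the deposited log ratio, 3 with the authors' table, and 0 with median centring, without the filter and with trend and robust moderation. It was 256 in separate channels with no replicate block and 496 with the array as a random replicate block, and 0 to 43 when each replicate was left out (43 without replicate 4). The block changed no call among the 10 genes. The cause of these shifts was not tested. The SE of the 10 mean ratios ran from 0.065 to 0.35, with a median of 0.087 over all gene names.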

Other observations

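The TGF-beta branch, which shares Smad4 and Smad7 with the BMP branch, had 0 of 15 members past the threshold and a median ratio of -0.048. Smad2, which carries the TGF-beta signal, had levels of 8.51, 8.76, 8.57 and 8.71 in Ad/NICD samples, against 8.88, 9.08, 8.88 and 8.96 in WT samples, with a ratio of -0.31 ± 0.058 (SE, n = 4 arrays) and a limma adjusted p of 0.136. Its groups did not overlap, with Ad/NICD below WT as for 5.58% of all gene names. Ccn2, a secreted matrix protein and TGF-beta target, had 9.96, 9.50, 9.18 and 8.99 in Ad/NICD samples, against 10.99, 11.25, 10.95 and 8.94 in WT samples. Its ratio was -1.13 ± 0.33 (adjusted p 0.225), or -1.52 without replicate 4, and the WT sample of replicate 4 was again the low one. Ltbp1, which holds latent TGF-beta in the matrix, was higher on 4 of 4 arrays, as for 11.1% of all gene names. Its ratio was 0.64 ± 0.18 (adjusted p 0.212), with 0.42 without replicate 4.

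Immediate early genes, which respond within minutes to many stimuli, had 8 of 16 members above 0, with array medians of -0.20, 0.16, -0.056 and 0.12.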
